A study of Xenopus tropicalis with 12 samples.

Results

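The regions described here are stretches of the Xenopus tropicalis genome that carried a peak in most, but not all, of 12 lists of thyroid hormone receptor (TR) ChIP-seq peaks and that lay away from the chromosome ends. Peaks of the 12 lists were joined into 1 region wherever they shared at least 1 bp. A region was a member when 8 to 11 of the lists had a peak in it and its midpoint lay between 0.1 and 0.9 of the length of its chromosome. Of 256032 merged regions, 2362 had a peak in 8 to 11 lists, and 755 of these were interior and so were members. The other 1607 lay in the outer 10% at either end, that is 68.0% of the widely shared regions against 22.6% of all regions. Members were thus chosen by the presence of called peaks and by position, and both are given below as descriptions without a test. Coordinates are those of genome build 9.1, counted from 1. No annotation of that build was used, so regions are named by position and no gene is assigned to them.

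TRs are nuclear receptors for the thyroid hormone T3. They bind DNA mostly as heterodimers with retinoid X receptors at thyroid hormone response elements, both without hormone, when they recruit corepressors, and with hormone, when they recruit coactivators. In the tadpole T3 drives metamorphosis, in which the tail is resorbed, and TRα and TRβ carry the signal.

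The libraries were made from chromatin of tadpole tail, precipitated with a non-commercial antibody against TR. Wild-type (WT) tadpoles and TRα (-/-) tadpoles, labelled TRaKO, came from the same parents and were used at around stage 54. In each genotype 3 libraries came from animals given 10 nM T3 for 18 hours (T3) and 3 from animals of the control group (control). The knockout was of TRα only, and the labels do not say which TR the antibody binds. No input library was used in peak calling. The design note of the series describes the 3 libraries of a group as technical replicates of merged tadpoles, in words written for RNA, so the errors and p-values below measure the spread between libraries and perhaps not between animals.

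Depth differed widely between libraries and has to be read beside every value. The number of fragments after removal of duplicates was 480140, 1024937 and 1382723 in WT control, 299393, 529290 and 774170 in the WT T3 group, 284375, 606620 and 858074 in TRaKO control, and 820314, 1547243 and 149532 in TRaKO T3. At these depths 1 fragment was worth between 0.646 and 6.69 fragments per 1000000 fragments of the library (FPM), the latter in TRaKO T3 3. That library also stood apart by its short fragments, 142 bp against 151 to 209 bp elsewhere. At some members described below it had the level of the TRaKO control libraries and not that of the other TRaKO T3 libraries, so results that rest on it are given with and without it.

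The members were not spread evenly along the chromosomes. When each chromosome was cut into 10 equal segments, the 8 inner segments held 167, 88, 34, 52, 92, 64, 61 and 197 members from one end to the other. The segments next to the excluded ends together held 364 members, or 48.2%. All merged regions were spread far more evenly, at 23578 to 29211 per segment. Widely shared regions made up 0.642% and 0.749% of all regions in the second and the ninth segment, 0.141% in the fourth, and 2.97% and 2.58% at the ends.

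**Figure D1:**
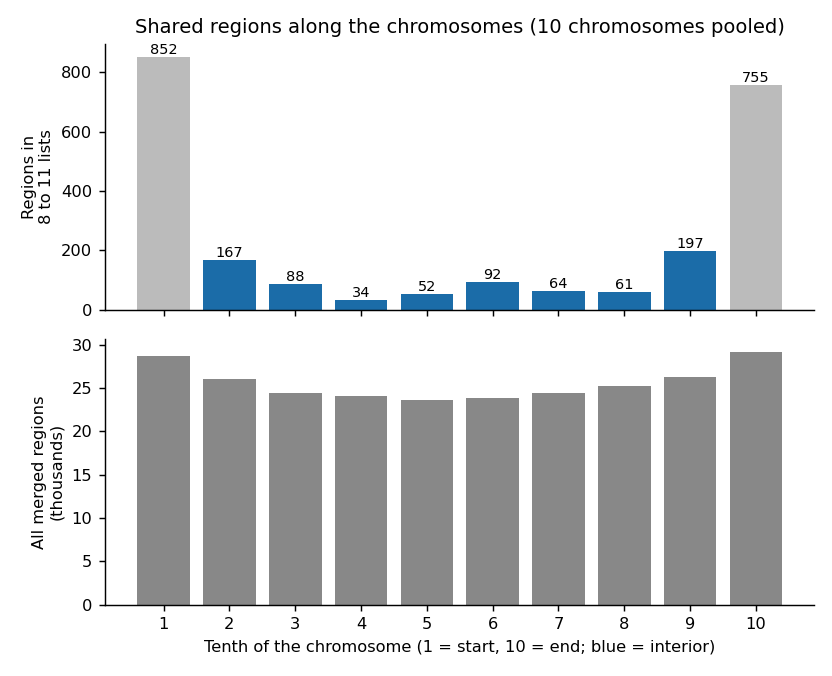
Number of regions with a peak in 8 to 11 of 12 lists (y axis) in each of 10 equal segments of a chromosome (x axis), summed over the 10 chromosomes, with the members in the 8 inner segments and the excluded end segments marked apart. The counts fall from 852 and 755 at the ends to 167 and 197 in the next segments and to 34 in the fourth, with a second, lower rise to 92 in the sixth.

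Each of the 10 chromosomes had members, from 44 on chromosome 3 to 100 on chromosome 6. Per 1000000 bp of chromosome interior, the density was lowest on chromosome 3, at 0.401, and highest on the small chromosomes 9 and 10, at 1.49 and 2.75. Away from the outermost inner segments, the fullest segment of a single chromosome was the sixth of chromosome 2, with 27 members. It was followed by the sixth of chromosome 9, with 22, and the seventh of chromosome 6, with 20.

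Most members stood alone. Neighbouring members were separated by a median gap of 326162 bp, against 76563 bp between the widely shared regions near the ends, and the quartiles were 44054 and 1261250 bp. Of 745 gaps, 247 (33.2%) were under 100 kb, against 58.0% near the ends. Gaps under 10 kb were 86 (11.5%), against 8.08% near the ends. Joined across gaps under 10 kb, 615 members were single, 37 runs held 2 members, and 17 runs held 3 to 6. So the interior members were on the whole far apart, with a share of close neighbours at least as large as near the ends.

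A member was a composite of several overlapping peaks. The median member was 1146 bp long, with quartiles of 820 and 1836.5 bp and a range of 193 to 5608 bp, while a single peak in it had a median of 537 bp. Regions near the ends had a median of 958 bp, interior regions in all 12 lists 1585 bp and interior regions in 1 list 224 bp. Joining more peaks makes a region longer, so these lengths in part restate the number of lists. The highest points (summits) of the peaks in a member spanned a median of 654 bp, and in 111 members (14.7%) they lay within 200 bp of each other. In 290 members (38.4%) at least 1 list had several peaks, against 23.0% near the ends. The longest member, chr5:36082320-36087927, held 26 peaks from 11 lists, and the shortest, chr10:5098610-5098802, held 8 peaks from 8 lists.

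The members were weak peaks for the most part. Over all member peaks the median pileup, the number of fragments over the summit, was 7, the authors' fold enrichment had a median of 4.95 and their −log10 q a median of 4.18. At least 1 list gave a −log10 q of at least 5 in 720 members (95.4%), but only 106 members reached it in 8 lists or more. Levels are given as FPM at the summit and, for a member, as the median over the lists with a peak. The members had a median of 8.5 FPM, with quartiles of 6.27 and 12.5 and a range of 3.23 to 125. The widely shared regions near the ends had a median of 7.78 and the interior regions in all 12 lists 24.8. The local background that the fold enrichment implies was 0.408 FPM around the members, 0.354 near the ends, 1.58 around interior regions in all 12 lists and 0.164 around interior regions in 1 list.

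Members in more lists were taller, across the bounds of the rule as well as within it. A peak is called only where enough fragments lie, so this order in part restates the number of lists. The median pileup was 6.57 FPM for the 255 members in 8 lists, 7.75 for the 196 in 9 lists, 10.0 for the 154 in 10 lists and 13.5 for the 150 in 11 lists. Just outside, it was 5.85 for the 346 interior regions in 7 lists and 24.8 for the 127 in 12 lists. At the position bounds the values were close to each other. Widely shared regions at 0.08 to 0.1 of chromosome length had 7.0 FPM (74 regions) and members at 0.1 to 0.12 had 7.18 (46). At the other end members at 0.88 to 0.9 had 7.23 (57) and regions at 0.9 to 0.92 had 6.95 (74).

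Which lists lacked a peak went with depth. Of the 755 members, 555, 731 and 720 had a peak in the WT control libraries, 396, 605 and 661 in WT T3, 340, 614 and 665 in TRaKO control, and 664, 735 and 308 in TRaKO T3. The lowest counts were those of the 3 shallowest libraries, TRaKO T3 3, TRaKO control 1 and WT T3 1, and the highest that of the deepest, TRaKO T3 2. Of 2066 absences in all, 1221 (59.1%) were in the 3 shallowest libraries and 79 (3.82%) in the 3 deepest. For 231 members no list but these 3 shallow ones lacked a peak, and 678 members had a peak in each of the 3 deepest.

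**Figure D2:**
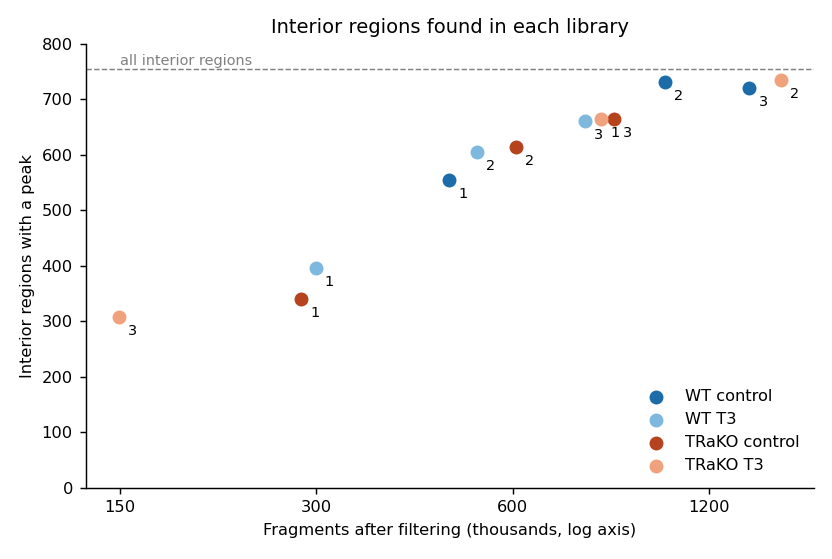
Number of the 755 members with a peak (y axis) against the fragments of the library (x axis, log scale), 1 point per library, coloured by group. The points run from 308 members at 149532 fragments to 735 at 1547243, and libraries of different groups with similar depth lie close together.

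The absences were set against the number of fragments a library would have had over the summit at the member's median level. For 1568 absences (75.9%) this number was under 5, and for 485 (23.5%) it was under the lowest pileup of any peak in that list. It was at least 10 in 134 absences, at 95 members, and 24 of these absences fell in 1 stretch of chromosome 2 described below. Most absences thus fell where fewer than 5 fragments would be found at the member's own median level. Peaks were also called at such numbers, with a median member pileup of 3 in TRaKO T3 3 and 4 in TRaKO control 1 and WT T3 1. A number under 5 therefore does not separate missing from called peaks, and why a call was missing was not tested. An absence is a missing call at that depth, not a measured level of 0.

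By group, 669 ± 98.6 members had a peak in a WT control library, 554 ± 140 in WT T3, 540 ± 175 in TRaKO control and 569 ± 229 in TRaKO T3 (mean ± SD, n = 3 libraries each). The groups overlapped, and the group with the most, WT control, was also the one with no shallow library. Members with a peak in all 3 lists of a group were 511 in WT control, 262 in the WT T3 group, 249 in TRaKO control and 259 in TRaKO T3. A member had more control than T3 lists in 349 cases and more T3 than control lists in 184, and more WT than TRaKO lists in 371 against 170. Depth also differed between the groups, at a mean of 962600 fragments in WT control, 534284 in WT T3, 583023 in TRaKO control and 839030 in TRaKO T3. The 3 shallowest libraries were TRaKO T3 3, TRaKO control 1 and WT T3 1. These counts and depth cannot be told apart.

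Few members lacked a whole group. The share of regions without any peak in a group, among the 13217 regions with a peak in at least 3 lists, was 11.5% for WT control, 24.6% for WT T3, 26.9% for TRaKO control and 17.9% for TRaKO T3. Among members 0, 4, 9 and 4 did so. A member lacks at most 4 lists, so its chance to lack all 3 of a group is small by the rule, and nothing is read from the difference. Near the ends 1, 19, 13 and 1 of 1607 widely shared regions lacked the same groups.

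Of these members 2 had a peak in all 9 other lists. The member chr9:71674735-71675100, 366 bp long, was missing from TRaKO control. Its pileup was 5, 9 and 14 fragments without T3 and 8, 7 and 9 with T3 in WT, and 13, 19 and 1 with T3 in TRaKO. The member chr10:24135920-24136529 was missing from WT T3. It reached 4, 5 and 17 fragments in WT control, 4, 7 and 8 in TRaKO control, and 7, 6 and 1 in TRaKO T3. At both, a peak of TRaKO T3 3 rested on 1 fragment. Also missing from TRaKO control were chr9:34401644-34403224, with 6, 7 and 10 fragments in WT T3, and chr9:63833217-63834728, with 3, 6 and 6. These and chr9:71674735-71675100 had a peak in all 6 T3 lists. Without WT T3 were also chr4:72457701-72459675, chr6:81087366-81087612 and chr9:66951389-66951858.

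With 8 lists as the lower bound, the most unequal split a member can have by treatment or genotype is 6 lists against 2. Peaks in all 6 T3 and 2 control lists were found at 2 members and the reverse at 5. Peaks in all 6 WT and 2 TRaKO lists were found at 12 members and the reverse at 3. No such count was made over all regions. TRaKO T3 3 and TRaKO control 1 had a peak at the fewest members, 308 and 340, so these splits and depth cannot be told apart. The tallest of the 12 was chr9:45617284-45618104, with 13, 39 and 50 fragments in the control and 15, 21 and 22 in the T3 libraries of WT, and with a peak in TRaKO control 3 (17 fragments) and TRaKO T3 2 (40 fragments) only among the TRaKO libraries. The tallest of the 3 was chr4:72457701-72459675, with 5, 6 and 6 fragments in TRaKO control, 8 and 11 in WT control 1 and 3 and none called in WT T3.

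The height of the peaks did not separate the groups. The median pileup of the members with a peak was 10.4, 7.81 and 7.96 FPM in the WT control libraries, 13.4, 11.3 and 9.04 in WT T3, 14.1, 8.24 and 8.16 in TRaKO control, and 7.92, 7.76 and 20.1 in TRaKO T3. The shallow libraries had the highest medians in each group, where 1 fragment is worth more. Averaged over its 3 libraries, WT control was at 8.72 ± 1.46, WT T3 at 11.2 ± 2.16, TRaKO control at 10.2 ± 3.39 and TRaKO T3 at 11.9 ± 7.06 (SD, n = 3), and they overlapped. Without TRaKO T3 3 the mean of TRaKO T3 was 7.84, below those of the other 3 groups. Rescaled to the regions with a peak in all 12 lists, the means were 9.11 ± 1.60, 10.8 ± 1.75, 11.2 ± 2.92 and 9.75 ± 2.96 in the same order, so TRaKO T3 went from the highest to the second lowest. With lists that lack a peak counted as 0, the means of the library medians came to 7.10 for WT control, 7.96 for WT T3, 5.08 for TRaKO control and 4.81 for TRaKO T3. By this count the shallow TRaKO control 1 and TRaKO T3 3 had a median of 0, which lowers the means of their groups.

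**Figure D3:**
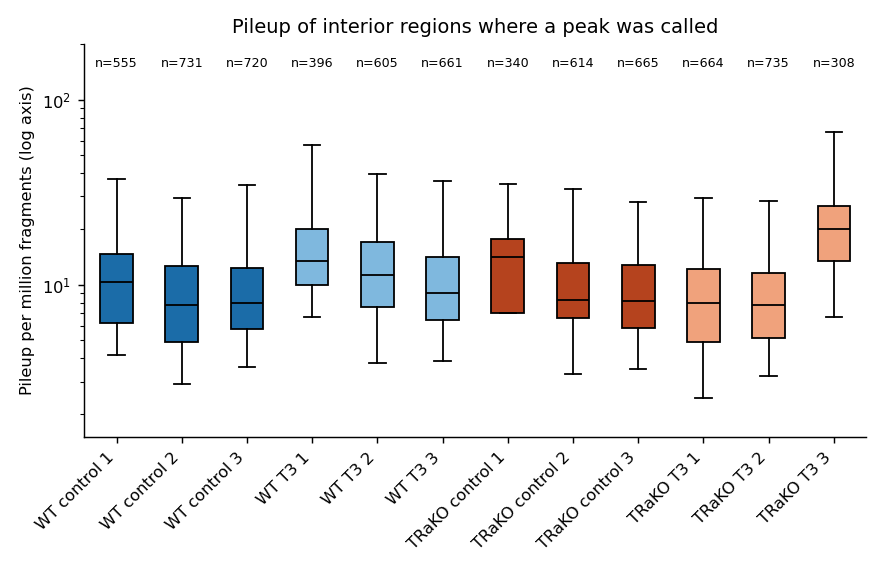
Pileup in FPM (y axis, log scale) of the members with a peak in each of the 12 libraries (x axis, by group), as boxes over members with the median as a line. The medians run from 7.76 in TRaKO T3 2, the deepest library, to 20.1 in TRaKO T3 3, the shallowest, and the 4 groups overlap.

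The tallest members lay on chromosomes 2 and 10. Only 25 members had a median above 50 FPM, and of the 10 tallest 7 lay within 1 stretch of chromosome 2 and 3 on chromosome 10. The tallest of all, chr10:20070398-20071041, had pileups of 115, 129 and 111 FPM in WT control, 154, 134 and 80.1 in the WT T3 group, 158, 97.3 and 88.6 in TRaKO control, and 144 and 125 in TRaKO T3 1 and 2. Its neighbour chr10:20069206-20070060 had 79.1, 99.5 and 114 in WT control, 98.2 and 145 in libraries 2 and 3 of WT T3, 98.9 and 113 in TRaKO control 2 and 3, and 82.9, 82.7 and 107 in TRaKO T3. The 4 groups overlapped at both, and the 2 members belonged to a run of 5 members within 8032 bp, chr10:20064149-20072180. The third, chr10:16972910-16973611, had 162, 129 and 106 in WT control and 123, 94.0 and 89.7 in TRaKO control, again overlapping. Local background at these 3 members was 26.5 to 31.8 FPM, far above the 0.408 around the median member. It comes from the same library's fragments over 10000 bp, so it includes the members' own peaks and any neighbouring ones.

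The chromosome 2 cluster lay at chr2:102068353-102162865, a stretch of 94513 bp that was singled out after its values were seen. It was bounded by joining regions with a peak in at least 3 lists across gaps under 20 kb, and it held 31 regions. Of these 14 were members, 10 had a peak in all 12 lists and 7 had fewer than 8 lists. The members' median gap was 3737 bp. Here the TRaKO control libraries stood below the others. The median of the members with a peak was 93.7, 118 and 106 FPM in WT control, 100, 120 and 95.6 in the WT T3 group, 52.7, 52.8 and 40.8 in TRaKO control, and 86.6, 87.9 and 97.0 in TRaKO T3. Every TRaKO control library was thus lower than every library of the other 3 groups. Those medians rest on 3, 12 and 11 members in TRaKO control and on 6 in TRaKO T3 3, against 13 or 14 in the others.

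The local background of the stretch followed the peaks. It comes from the same library's fragments over 10000 bp, so it includes these peaks and is not a separate measure. The local background around the members was 30.6, 38.5 and 42.2 FPM in WT control, 33.3, 43.1 and 37.2 in the WT T3 group, 8.70, 16.7 and 13 in TRaKO control, and 27.5, 30.0 and 21.6 in TRaKO T3. The 10 regions with a peak in all 12 lists, for which no list is left out, had medians of 152, 187 and 169 in WT control, 185, 190 and 168 in the WT T3 group, 66.8, 80.8 and 57.1 in TRaKO control, and 143, 128 and 140 in TRaKO T3. TRaKO control was therefore lowest here too, without the choice of lists that affects the members. These regions lie among the members in the same stretch, chosen with its values in view, so they are not separate support.

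**Figure D4:**
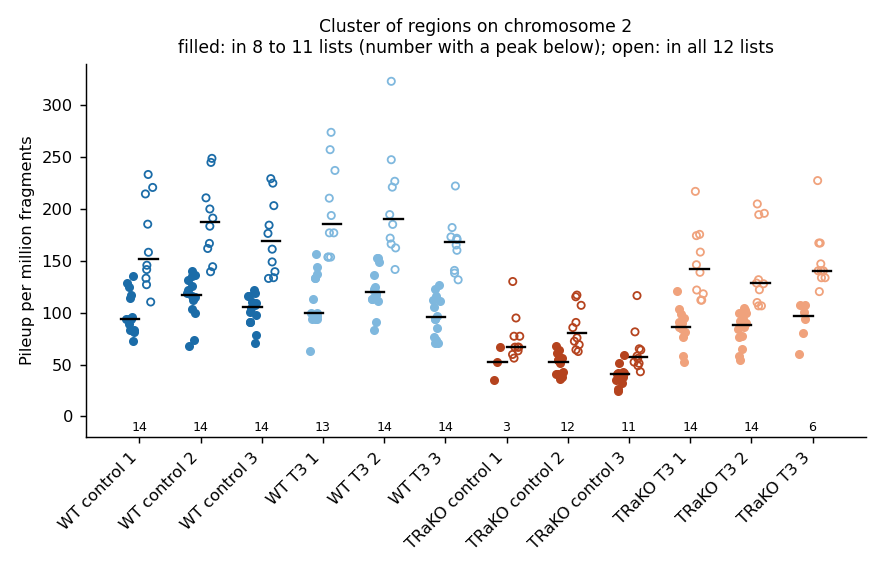
Pileup in FPM (y axis) of regions of the chromosome 2 stretch in each library (x axis, by group), 1 point per region. Filled points are the 14 members where they have a peak, with the number of these below. Open points are the 10 regions with a peak in all 12 lists. A bar marks the median of each set. The members' medians of 40.8 to 52.8 in TRaKO control lie below those of the other 9 libraries, 86.6 to 120.

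The largest run outside that stretch was chr9:45595060-45627919, with 6 members in 32860 bp. All 6 had a peak in every WT library, with library medians of 28.1 to 51.0 FPM in WT control and 43.9 to 50.1 in WT T3. TRaKO control 1 had none of the 6, TRaKO control 2 had 4 (median 23.1) and TRaKO control 3 had all (26.2). TRaKO T3 1 had 5 (21.9), TRaKO T3 2 had 6 (28.1) and TRaKO T3 3 had 3 (53.5). So the 4 deeper TRaKO libraries were at or below the lowest WT library, and the shallow TRaKO T3 3, in which 1 fragment is worth 6.69 FPM, was not. The next runs were chr4:72452771-72479589 and chr7:97085037-97100461, each of 5 members. Their members had medians of 11.3 to 20.7 and 13.4 to 28.3 FPM.

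Differences between groups were tested region by region with limma on the log2 of pileup in FPM, with Benjamini-Hochberg adjustment over all regions fitted and a threshold of 0.05. A library without a peak has no pileup in the files. So a comparison of 2 groups took only regions with a peak in all 6 lists, and the fits over 12 libraries took regions with a peak in at least 2 lists of each group and left the missing libraries out. Members that fell below the calling limit in a group are not in these fits. The fits that left out 1 library kept the regions chosen with all libraries. Peaks of the library left out thus still counted in that choice. A member without a peak in that library kept its difference, and only its error and adjusted p could move. In all, 18 different members passed in at least 1 fit. No such pooled count was made over all regions, so the share of all regions called is given with each fit below.

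TRaKO control against WT control, the comparison of genotypes without hormone, gave the most calls. Of 829 regions fitted, 48 (5.79%) passed, 26 (3.14%) higher and 22 (2.65%) lower in TRaKO. Of the 158 members among them 10 passed, 7 higher and 3 lower, and 2 of the lower ones were in the chromosome 2 stretch. Of the 158 members, 96 had a log2 difference above 0 and 62 below. Without WT control 3 or TRaKO control 2, 31 regions passed. With the replicate number added to the fit (replicate block), 34 regions and 8 members passed. Rescaling to the regions in all 12 lists shifts all differences by 0.10 and gave 34 higher and 19 lower regions, and 10 higher and 2 lower members.

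The largest difference was at chr6:82790518-82790769, a member of 252 bp. Its pileup was 20.8, 14.6 and 15.9 FPM in WT control, 20.0 and 13.2 in libraries 1 and 2 of WT T3, 162, 110 and 134 in TRaKO control, and 17.1, 16.8 and 114 in TRaKO T3. The 3 TRaKO control libraries and TRaKO T3 3 were high and did not overlap with the other 7, which lay within 13.2 to 20.8. In TRaKO control it rose by 2.98 ± 0.29 on the log2 scale (± SE, adjusted p = 6.12e-08, limma). The member chr10:5098610-5098802, the shortest, had a like order among the libraries with a peak but too few lists to be fitted. It had 18.7 and 14.6 in WT control 1 and 2, 26.7 in library 1 of WT T3, 144 and 125 in TRaKO control 1 and 2, and 17.1, 21.3 and 187 in TRaKO T3. There too TRaKO T3 3 stood with TRaKO control 1 and 2 and not with its own group. TRaKO control 3, a deeper library than either of these, had no peak there, nor had WT control 3 and WT T3 2 and 3.

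Other members that were higher in TRaKO control had lower levels. At chr5:120249191-120249679 the pileup was 12.5, 11.7 and 6.51 FPM in WT control and 59.8, 49.5 and 29.1 in TRaKO control, with 5.17 in WT T3 3 and 8.53 and 8.40 in TRaKO T3 1 and 2. The groups did not overlap, and the difference was 2.17 ± 0.39 (adjusted p = 0.000741, limma). At chr6:81087366-81087612 it was 10.4, 2.93 and 5.79 in WT control and 21.1, 37.9 and 28 in TRaKO control (2.33 ± 0.46, adjusted p = 0.00222). No WT T3 library had a peak there, and TRaKO T3 2 and 3 had 3.88 and 20.1, the latter from 3 fragments. At chr10:32918667-32919294 the values were 6.25, 6.83 and 4.34 in WT control and 35.2, 18.1 and 22.1 in TRaKO control (2.08 ± 0.43, adjusted p = 0.00299). At chr3:53885888-53886644 they were 8.33, 4.88 and 3.62 against 35.2, 24.7 and 14.0 (2.12 ± 0.46, adjusted p = 0.00503). The WT control values rested on few fragments. They were 5, 3 and 8 at chr6:81087366-81087612, 3, 7 and 6 at chr10:32918667-32919294, and 4, 5 and 5 at chr3:53885888-53886644.

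These 5 members kept their call in all 11 alternative fits. The other 2, both on chromosome 10, were smaller differences of 1.64 at chr10:28253358-28253857 (adjusted p = 0.0160, limma) and 1.19 at chr10:32834123-32834424 (adjusted p = 0.0230). The first was no longer called without WT control 3 (adjusted p = 0.0803) or TRaKO control 2 (0.0924), and the second without WT control 2 (0.119) or TRaKO control 1 (0.0516).

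Lower in TRaKO control were the members chr2:102083219-102084734, chr2:102101383-102102384 and chr5:30492061-30493343. The first fell from 83.3, 68.3 and 70.9 FPM in WT control to 35.2, 37.9 and 24.5 (log2 difference -1.21 ± 0.28, adjusted p = 0.00963, limma). The second fell from 72.9, 103 and 101 to 52.7, 42.9 and 40.8 (-1.01 ± 0.26, adjusted p = 0.0203). Its call was lost without WT control 2 (adjusted p = 0.136), WT control 3 (0.113), TRaKO control 2 (0.0610) or TRaKO control 3 (0.0651). The replicate block ended this call too. The third fell from 25, 28.3 and 34.7 to 14.1, 6.59 and 15.2 (-1.38 ± 0.40, adjusted p = 0.0394). That call was lost without any of the WT control libraries (0.0626, 0.111 and 0.183) or without TRaKO control 2 (0.184). It was also lost after rescaling (0.0523), with 1 fragment added (0.0571) and with regions of at least 2 lists a group (0.0808). The replicate block ended it as well. Among the regions of the stretch that are in all 12 lists, 9 of 10 passed and all 10 were lower, with a median of -1.23.

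**Figure D5:**
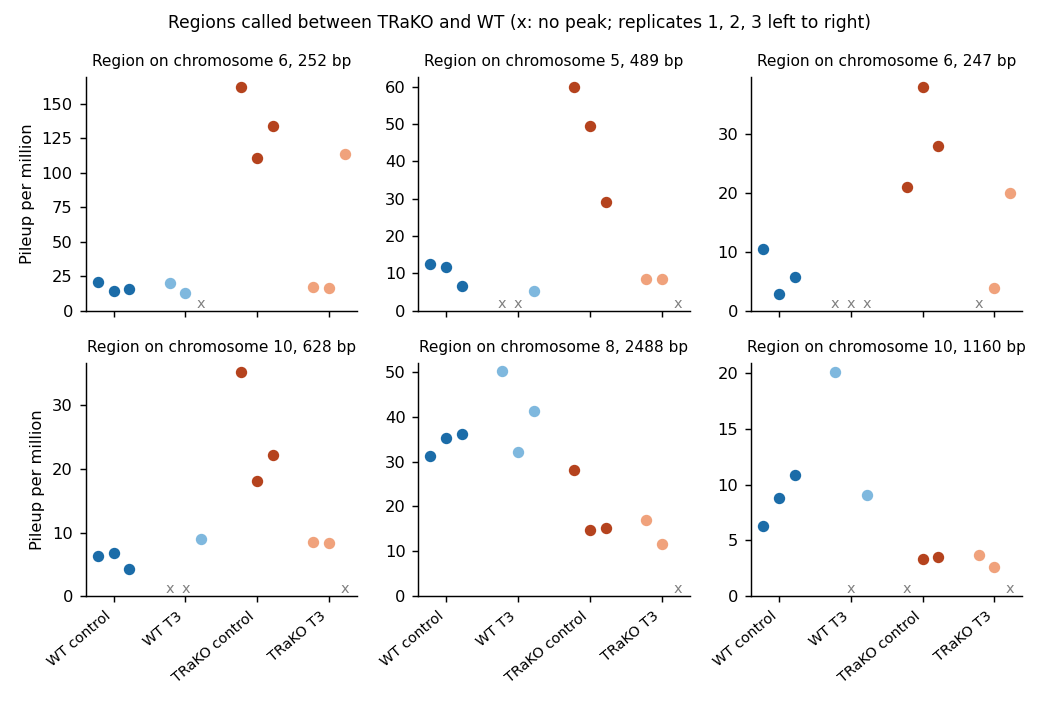
Pileup in FPM (y axes) in each library with a peak, by group (x axes), at 6 members called in a genotype comparison, on chromosomes 6, 5, 6, 10, 8 and 10. In the first 4 panels the TRaKO control points lie above the WT control points (for example 110 to 162 against 14.6 to 20.8), and in the last 2 the TRaKO points lie below the WT points.

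TRaKO against WT over both treatments could be fitted for 469 members among 1776 regions. Of all regions 29 (1.63%) passed, 7 (0.394%) higher and 22 (1.24%) lower, and of the members 10, of which 1 was higher and 9 lower in TRaKO. The higher one was chr6:82790518-82790769, which kept its call in all 16 alternative fits, the fit without TRaKO T3 3 among them. TRaKO T3 1 and 2 had 17.1 and 16.8 FPM there, within the WT values of 13.2 to 20.8. So the TRaKO libraries that were high there were TRaKO control and TRaKO T3 3. Of the 9 lower members 6 were in the chromosome 2 stretch. The 10 members fitted there had a median of -0.81, and the 10 regions in all 12 lists had -0.83 with all 10 called. The largest of these 6 differences were at chr2:102127841-102128836 (-1.07 ± 0.21, adjusted p = 0.00387, limma) and chr2:102161168-102162865 (-1.03 ± 0.17, adjusted p = 0.000993). The latter had 135, 140 and 116 FPM in WT control, 137, 149 and 111 in the WT T3 group, 56.0 and 38.5 in TRaKO control 2 and 3, and 98.7, 86.0 and 80.3 in TRaKO T3. All 5 TRaKO libraries were below all 6 WT libraries. The member chr2:102080481-102082361, second in height of all members, had 129, 126 and 122 in WT control, 134, 119 and 127 in the WT T3 group, 67.6 and 42.0 in TRaKO control 2 and 3, and 86.6, 105 and 107 in TRaKO T3. There too WT and TRaKO did not overlap, and the call (adjusted p = 0.00963) was lost without TRaKO control 3 (0.110). The calls at chr2:102119599-102121281 (0.0106) and chr2:102083219-102084734 (0.0399) were lost without TRaKO control 3 as well (0.0561 and 0.117). The second was also lost without any 1 of 8 other libraries, with adjusted p up to 0.178, and after rescaling (0.0980). The replicate block ended the call at chr2:102119599-102121281.

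Outside the stretch 3 members were lower in TRaKO over both treatments. At chr8:97926891-97929378 the pileup was 31.2, 35.1 and 36.2 FPM in WT control, 50.1, 32.1 and 41.3 in the WT T3 group, 28.1, 14.8 and 15.2 in TRaKO control, and 17.1 and 11.6 in TRaKO T3 1 and 2. The genotypes did not overlap, and the difference was -1.20 ± 0.27 (adjusted p = 0.0181, limma). At chr10:26523161-26524320 it was 6.25, 8.78 and 10.8 in WT control, 20.0 and 9.04 in libraries 1 and 3 of WT T3, 3.30 and 3.50 in TRaKO control 2 and 3, and 3.66 and 2.59 in TRaKO T3 1 and 2 (-1.72 ± 0.40, adjusted p = 0.0258). Each TRaKO value there rests on 2 to 4 fragments. At chr4:83122111-83123033 it was 27.1, 13.7 and 17.4 in WT control, 30.1, 37.8 and 18.1 in the WT T3 group, 17.6, 8.24 and 5.83 in TRaKO control, and 7.31 and 9.05 in TRaKO T3 1 and 2 (-1.36 ± 0.35, adjusted p = 0.0441), with an overlap between WT and TRaKO control 1.

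These 3 calls depended on single libraries. Leaving out 1 library ended the call at chr8:97926891-97929378 in 6 cases (WT control 2 or 3, WT T3 1, TRaKO control 2 or 3, TRaKO T3 2), with adjusted p of 0.0585 to 0.147. It ended that at chr10:26523161-26524320 in 7 cases (WT control 2 or 3, WT T3 1, TRaKO control 2 or 3, TRaKO T3 1 or 2), with 0.0527 to 0.188. It ended that at chr4:83122111-83123033 in 9 cases (any but WT T3 3, TRaKO control 1 and TRaKO T3 3), with 0.0577 to 0.181. The direction was kept in each. Adding 1 fragment before scaling also ended the calls at the chromosome 10 (0.0573) and chromosome 4 (0.0757) members. The replicate block ended the call at the chromosome 10 member as well. Of 469 members 6 (1.28%) passed without WT control 2, WT control 3, WT T3 1 or TRaKO T3 2, and 4 (0.853%) without TRaKO control 3. Over all 1776 regions 19, 21, 22, 20 and 21 passed in the same order (1.07% to 1.24%). Without TRaKO T3 3, on the other hand, 15 members (3.20%) and 42 regions (2.36%) passed. Among these members were 2 of the chromosome 9 run, chr9:45596962-45598795 (-0.94, adjusted p = 0.0270) and chr9:45612970-45614364 (-0.87, adjusted p = 0.0373). The first has no peak in TRaKO T3 3, so its difference was the same with all libraries and only its adjusted p moved, from 0.0728. The second has a peak there and was at -0.73 (adjusted p = 0.216, limma) with all libraries. With all libraries the 4 members of that run that could be fitted were lower in TRaKO by a median of -0.81, and none passed (lowest adjusted p = 0.0728).

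TRaKO T3 against WT T3 compared the genotypes under hormone and gave 0 calls (0%) among 670 regions and 0 among 83 members by limma. At an unadjusted p under 0.05 there were 29 regions and 3 members. The smallest p among the members was at chr2:102127841-102128836, with 93.5, 153 and 76.2 FPM in WT T3 and 58.5, 64.6 and 60.2 in TRaKO T3 (-0.75 ± 0.28, adjusted p = 0.661). The groups did not overlap at that member. Leaving out 1 library gave at most 3 calls, without TRaKO T3 3, and 1 without WT T3 2, with none at a member in any such fit.

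WT T3 against WT control, the effect of T3 in animals with TRα, gave 0 calls (0%) among 946 regions and 0 among 186 members by limma. At an unadjusted p under 0.05 there were 21 members and, over all regions, 80. The log2 difference was above 0 for 147 of the 186, with a median of 0.27, and the median over all regions was 0.19. Rescaling to the regions in all 12 lists shifts every difference in this comparison by -0.11. The smallest p was at chr9:61178340-61179196, with 8.33, 2.93 and 6.51 FPM in WT control, 33.4, 24.6 and 10.3 in the WT T3 group, 9.89 and 14.0 in TRaKO control 2 and 3, and 12.2, 12.9 and 6.69 in TRaKO T3. The WT groups did not overlap, and the difference of 1.91 ± 0.50 missed the threshold (adjusted p = 0.0968). Without WT T3 3 it passed, at 2.40 (adjusted p = 0.0167), and 4 regions passed in all. Without WT control 2 or WT T3 1, 1 region passed. In the chromosome 2 stretch the 13 members fitted had a median of 0.05 and none passed.

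TRaKO T3 against TRaKO control, the effect of T3 without TRα, gave 25 calls (4.06%) among 616 regions, 17 (2.76%) higher and 8 (1.3%) lower under T3. Of 71 members 1 passed, chr6:82790518-82790769, which fell by 2.07 on the log2 scale (SE 0.50, adjusted p = 0.0207, limma) with the values given above. Without TRaKO T3 3 it fell by 2.98 (adjusted p = 4.29e-07). The call was lost without TRaKO control 1 (adjusted p = 0.0995) or TRaKO control 3 (0.0655), and when regions with at least 2 lists a group were fitted (0.147). No member of the chromosome 2 stretch had a peak in all 6 of these lists. The regions there with a peak in all 12 lists were higher under T3 in 10 of 10, with a median of 0.99, and 7 passed. Rescaling to the regions in all 12 lists shifts all differences of this comparison by -0.34 and leaves 1 region higher and 8 lower over all regions. All 10 regions of the stretch then stayed above 0, with a median of 0.65, and none passed. Without TRaKO T3 1 or TRaKO T3 2, 2 of the 10 passed, and without TRaKO control 3, 1 did. When regions with at least 2 lists a group were fitted, 1 of the 10 passed. That fit also took in 10 members of the stretch, all above 0 with a median of 0.93, and none passed. Over all regions the calls went from 25 to 10 without TRaKO control 3.

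T3 against control over both genotypes gave 10 calls (0.563%) among 1776 regions, 8 of them (0.45%) higher under T3, and 1 call among 469 members, also higher. That member was chr2:102098208-102098909, with 93.7, 132 and 91.1 FPM in WT control, 134, 153 and 94.3 in the WT T3 group, 41.2 and 32.6 in TRaKO control 2 and 3, and 90.2, 100 and 93.6 in TRaKO T3. WT T3 and WT control overlapped there, and TRaKO T3 and TRaKO control did not. The difference of 0.81 ± 0.19 (adjusted p = 0.0370, limma) did not pass without WT control 1, WT control 3, WT T3 1, WT T3 2, TRaKO control 3, TRaKO T3 1 or TRaKO T3 2, with adjusted p of 0.0626 to 0.147. After rescaling, which shifts all differences here by -0.18, it was 0.56 (adjusted p = 0.420). The calls over all regions then turned from 8 higher and 2 lower to 1 higher and 9 lower, and the member called was chr6:82790518-82790769, at -1.30 (adjusted p = 0.04996, limma), so the direction of T3 calls over both genotypes depended on the scaling. Over all regions 4 to 6 passed without any 1 of WT control 1, WT control 3, WT T3 1, WT T3 2, TRaKO control 3 or TRaKO T3 1, and 19 without TRaKO T3 3. Without TRaKO T3 3, chr6:82790518-82790769 passed with -1.52 (adjusted p = 0.000365), against -1.06 (0.252) with it. Also passing in that fit was chr5:36078882-36081658 (adjusted p = 0.0341, limma, against 0.0972 with all libraries). TRaKO T3 3 has no peak there, so the difference was 0.97 in both fits.

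Whether T3 acted differently in the 2 genotypes was tested as the difference of the T3 effects. It gave 6 calls (0.338%) among 1776 regions and 0 among 469 members by limma. At an unadjusted p under 0.05 there were 35 members and, over all regions, 159. The lowest adjusted p of a member was 0.109. In the chromosome 2 stretch the T3 effect was larger in TRaKO than in WT at all 10 members fitted, by a median of 0.90 (0.57 without TRaKO control 3), and none passed. Rescaling shifts the differences by -0.21 and turned the calls over all regions from 3 higher and 3 lower to 1 and 6. Over all regions 3 passed without WT control 1, 2 without WT T3 2 and 16 without TRaKO T3 3. Of the members 3 passed without TRaKO T3 3. They were chr6:82790518-82790769, at -2.93 (adjusted p = 0.000675, against -2.01 and 0.373 with all libraries), chr4:43738802-43739704, at -3.18 (0.0436, against 0.117), and chr8:103057706-103059177, at -3.42 (0.0392, against 0.109). The chromosome 4 and chromosome 8 members have no peak in TRaKO T3 3. Their differences were therefore the same with all libraries, and only the adjusted p moved across the threshold. Without WT control 3 the chromosome 8 member passed as well, at -4.36 (adjusted p = 0.0494).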

How the data were processed

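The 12 deposited lists hold TR ChIP-seq peaks of tadpole tail. The submitters' processing notes name Bowtie2 2.3.4.1 for alignment and MACS2 2.1.1.20160309 for the peaks. Per the file headers, the authors called peaks on paired-end fragments of 1 library at a time, after duplicate removal, without a control library, at a q-value cutoff of 0.05, with the effective genome size set to 1510000000 bp and the local background taken from 10000 bp. The deposited pileup is a signal, the unscaled number of fragments at the summit. The authors' fold enrichment is a ratio of pileup to local background with 1 added to both, and −log10 of the p- and q-value are also given, per the file headers.

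From these, peaks were merged (1 bp shared), the highest pileup per region and list was divided by the fragments in the headers, in units of 1000000 (FPM) (depth 149532 to 1547243, which limits precision to a few fragments per peak), and the local background was derived from the fold enrichment. Groups came from the labels. Fits used limma 3.58.1 in R 4.3.3 (trend, Benjamini-Hochberg over all regions), tested on simulated data; other steps used Python 3.11.15, pandas 2.3.3 and numpy 2.4.6. The members, the regions named and the tests were chosen with earlier results of these data known. Named were the 10 tallest members, up to 5 called members per fit and direction (the smallest p where none passed), up to 4 per group missing from that group alone or with the most unequal lists, the 3 largest runs, and the longest, shortest and outermost members. The chromosome 2 stretch and further members called without 1 library were picked with their values in view. Alternatives were other scalings, filters, overlaps, bounds, a replicate block and leaving out each library. No genome or annotation of build 9.1 was used, so no gene or sequence is given.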

Additional observations from a re-analysis of the deposited data

How the results depend on the processing

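The number of members, 755, was 584 with peaks of at least 3 fragments, 567 with lists of equal length, 504 with windows of 100 bp to each side of the summits, 182 with −log10 q of at least 5, 1101 with 7 to 11 lists, 500 with 9 to 11 lists, 1233 at 0.05 to 0.95 and 391 at 0.2 to 0.8 of chromosome length, and 510 to 639 without 1 library. Lists without a peak counted as 0 gave mean library medians of 7.10, 7.96, 5.08 and 4.81 FPM (WT control, WT T3, TRaKO control, TRaKO T3). The medians of TRaKO control 1 and TRaKO T3 3 were 0 by this count. Members without a whole group became 1 for WT control (windows), 4 (3 fragments) and 5 (windows) for TRaKO control and 2 under each for TRaKO T3.

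Regions called moved to 3 of 3244 for WT T3 against WT control (at least 2 lists a group). For TRaKO T3 against TRaKO control they moved to 9 of 616 (rescaled) and 15 of 2693 (at least 2 lists). In TRaKO control against WT control, members called moved from 10 of 158 (6.33%) to 20 of 609 (3.28%) with at least 2 lists. Over all regions the calls there moved from 48 of 829 (5.79%) to 57 of 3013 (1.89%). Of the 384 regions in all 12 lists, 29 (7.55%) were called for T3 over both genotypes and 17 (4.43%) for genotype. For the difference of T3 effects 12 (3.125%) were called. Without 1 library the calls over all regions, and over members, ranged over 0 to 4 and 0 to 1 (WT T3 against control), 10 to 22 and 0 to 1 (TRaKO T3 against control), 31 to 65 and 7 to 12 (TRaKO against WT control), 0 to 3 and 0 (TRaKO T3 against WT T3), 4 to 19 and 0 to 3 (T3), 19 to 42 and 4 to 15 (genotype), and 2 to 16 and 0 to 3 (difference). Of the named fits none reversed.

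Between groups, libraries of the same replicate number correlated at -0.0855 to 0.212 (median 0.0264), and the others at -0.137 to 0.127 (median -0.00943). Replicates 3 had sample numbers 21 to 24 in the headers. Replicates 1 and 2 of a group shared a number, 9 in WT control, 10 in WT T3, 11 in TRaKO control and 12 in TRaKO T3. Fragment size rose from replicate 1 to 3 in each group but TRaKO T3. Whether the replicate numbers mark pairs or a batch was not tested. The replicate block gave 34 calls, 8 of them members, in TRaKO control against WT control and 10 in the difference of T3 effects. Under it adjusted p was 0.0523 at chr2:102101383-102102384 and 0.0887 at chr5:30492061-30493343 (TRaKO control against WT control), and 0.0545 at chr2:102119599-102121281 and 0.101 at chr10:26523161-26524320 (TRaKO against WT over both treatments), all called without the block. Depth limits the rest: peaks of a few fragments, no input library, and libraries that may be technical replicates.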
